A study of Mus musculus with 9 samples.

Results

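The genes described here are 9 markers of the step from neural stem cell to neuron: Neurog1, Neurog2, Neurod1, Neurod4, Eomes, Insm1, Hes6, Btg2 and Gadd45g. They were taken by symbol from a table of read counts with 56748 mouse genes, and all 9 were among the 17171 genes with enough counts to be tested. RNA sequencing of the brain of mouse embryos at embryonic day 14 gave 9 libraries, 3 from embryos exposed to valproic acid, 3 from embryos exposed to poly(I:C) and 3 from controls given saline. Valproic acid is an antiepileptic drug that inhibits histone deacetylases, and poly(I:C) is a synthetic double-stranded RNA that mimics a viral infection. Exposure of the mother to either is used to model autism in the offspring. The series describes the mice as wildtype, and the labels give neither strain, dose, day of exposure, litter nor sex. Nor do they say whether the 3 libraries of a group come from separate embryos or litters, so the p-values below measure the spread between these libraries.

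In the developing cortex, apical progenitors divide at the ventricle and give rise to intermediate progenitors, which divide again to make neurons. The proneural factors Neurog1 and Neurog2 are basic helix-loop-helix (bHLH) proteins that start this step: with E proteins as partners they bind E-box sequences and switch on Notch ligands, later bHLH factors and genes of cell cycle exit. Notch signalling holds them back through the repressors Hes1 and Hes5, and the series, by its title, is about Notch signalling in such models. In bulk tissue a lower or higher count can come from fewer or more cells of a type or from less or more RNA per cell, and these cannot be told apart.

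Libraries held 15399974 to 19883131 counts. Pairs of libraries within a group differed by a chi-square of 3.73 to 6.01 per degree of freedom, more than counting error alone gives. The forebrain regulators Emx1 and Dlx2 stood at 42.6 to 57.7 CPM (the count scaled to library size) and 98.8 to 111 CPM over the 9 libraries. The design text speaks of whole brain, but genes of the hindbrain and midbrain, looked up after their values were seen, were at low levels. Hoxa2 had 0 counts and Hoxb2 1 count over all 9 libraries, and En1 and En2 stayed at or below 0.384 and 0.884 CPM. The midbrain gene Pax7 was found in every library, at 0.815 to 3.07 CPM. The thalamic gene Tcf7l2 was present at 214 to 287 CPM. The libraries also differed by sex-linked RNA. Xist RNA, made from the inactive X chromosome, was found in the 3 libraries of the valproic acid group and in poly(I:C) replicate 3, with 979 to 1054 CPM, and stayed at or below 0.236 CPM elsewhere. Y-linked transcripts summed to 196 to 201 CPM in poly(I:C) replicates 1 and 2 and control replicates 1 and 2, and to 0 in the others. Control replicate 3 had neither signal. Sex and valproic acid exposure therefore cannot be told apart in the comparison with controls, and the calls of the 9 genes are given with and without a sex-linked covariate.

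The 9 genes differed in level over a wide range. Per kilobase of exon, control libraries had the most RNA of Neurog2, at 65.1 ± 2.52 CPM per kb (SD, n = 3). Hes6 followed at 55.8 ± 1.71, Gadd45g at 50.2 ± 4.05, Insm1 at 44.8 ± 1.71 and Eomes at 35.9 ± 1.07 CPM per kb. Neurod1 and Btg2 were lower, at 20.6 ± 0.628 and 19.6 ± 0.822 CPM per kb, and Neurog1 and Neurod4 were lowest, at 3.42 ± 0.878 and 1.80 ± 0.205 CPM per kb. In this order the control libraries of neighbouring genes overlapped for Gadd45g and Insm1 and for Neurod1 and Btg2. Neurog2 led in every group, with 96.8 ± 3.09 CPM per kb after valproic acid and 79.2 ± 2.99 CPM per kb after poly(I:C). After valproic acid Btg2 stood above Neurod1, at 25.7 against 19.7 CPM per kb, without overlap. Exon lengths came from an annotation of an earlier genome build (GRCm38) than the one named for the counts.

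Promoters of 8 of the 9 genes were in the RefSeq promoter table (GRCm38.p6), as windows of 250 bases before and 50 bases after the transcription start. Those of Neurog2 and Eomes are shown because they are the proneural and the intermediate progenitor factor with the clearest changes below, and those of Hes6 and Gadd45g because they held the most E-boxes among the 8. Capitals mark E-boxes (CANNTG) and N-boxes, the sites that Hes repressors bind (CACNAG, or CTNGTG when read on the other strand). The windows are chr3:127632886-127633185 on the plus strand for Neurog2, chr9:118477939-118478238 on the plus strand for Eomes, chr1:91413989-91414288 on the minus strand for Hes6 and chr13:51846425-51846724 on the plus strand for Gadd45g.
Neurog2: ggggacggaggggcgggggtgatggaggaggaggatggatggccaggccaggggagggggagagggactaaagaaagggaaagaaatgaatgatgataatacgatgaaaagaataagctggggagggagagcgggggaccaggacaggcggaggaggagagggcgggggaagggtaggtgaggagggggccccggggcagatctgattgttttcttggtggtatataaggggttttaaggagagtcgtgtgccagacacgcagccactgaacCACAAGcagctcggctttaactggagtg
Eomes: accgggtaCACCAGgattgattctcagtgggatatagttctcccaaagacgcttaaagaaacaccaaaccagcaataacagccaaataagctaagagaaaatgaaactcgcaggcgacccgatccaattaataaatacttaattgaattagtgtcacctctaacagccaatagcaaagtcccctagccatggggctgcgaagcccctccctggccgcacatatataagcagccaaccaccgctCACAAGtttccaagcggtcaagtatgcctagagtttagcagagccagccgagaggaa
Hes6: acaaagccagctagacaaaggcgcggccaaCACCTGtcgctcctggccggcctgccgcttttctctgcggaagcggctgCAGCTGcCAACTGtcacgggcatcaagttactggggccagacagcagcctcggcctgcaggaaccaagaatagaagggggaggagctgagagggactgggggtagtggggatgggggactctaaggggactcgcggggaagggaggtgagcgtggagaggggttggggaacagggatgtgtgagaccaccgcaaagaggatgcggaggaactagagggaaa
Gadd45g: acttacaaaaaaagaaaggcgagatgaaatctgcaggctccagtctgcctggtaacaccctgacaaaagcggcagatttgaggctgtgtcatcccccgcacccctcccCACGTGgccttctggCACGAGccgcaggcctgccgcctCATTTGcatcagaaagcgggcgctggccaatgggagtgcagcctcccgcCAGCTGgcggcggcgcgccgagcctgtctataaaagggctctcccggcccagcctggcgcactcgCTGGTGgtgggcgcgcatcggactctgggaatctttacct

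The Neurog2 and Eomes windows held no E-box, while those of Hes6 and Gadd45g held 3 each. Over the 8 promoters, an E-box was found in 4, namely those of Neurog1, Neurod1, Hes6 and Gadd45g, and in 72.1% of all 27025 promoters in the table. The E-box form CAGATG was in 0 of the 8 and in 17.2% of all promoters, and the form CAGCTG was in 2 of the 8, Hes6 and Gadd45g, and in 16.1% of all. An N-box was found in 5 of the 8 (Neurog2, Neurod1, Neurod4, Eomes and Gadd45g) and in 42.6% of all promoters. The sequence TGGGAA, bound by the Notch effector Rbpj, was in 2 of the 8 (Btg2 and Gadd45g) and in 25.5% of all. Both strands were searched, and CAGATG and CAGCTG are themselves E-boxes. Matches to CANNTG and CACNAG shared no bases in these promoters. A match says only that the letters are there, and no match says only that they are not in this window. For the 2 genes with several listed starts the first was used.

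Of the 9 genes, 6 were higher in valproic acid libraries than in controls: Neurog1, Neurog2, Eomes, Hes6, Btg2 and Gadd45g. None fell, and Neurod1, Neurod4 and Insm1 did not pass the test. In 7 of the 9 genes every valproic acid library lay above every control library. Over all tested genes, 6.35% were called at an adjusted p under 0.05 in edgeR's quasi-likelihood test, 3.57% as higher and 2.78% as lower, and 22.1% had an unadjusted p under 0.05, as did 6 of the 9. Valproic acid libraries lay above all controls in 12.6% of tested genes and below them in 13%. The median log2 change was 0.33 over the 9 genes, beside -0.00 over all tested genes.

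**Figure D1:**
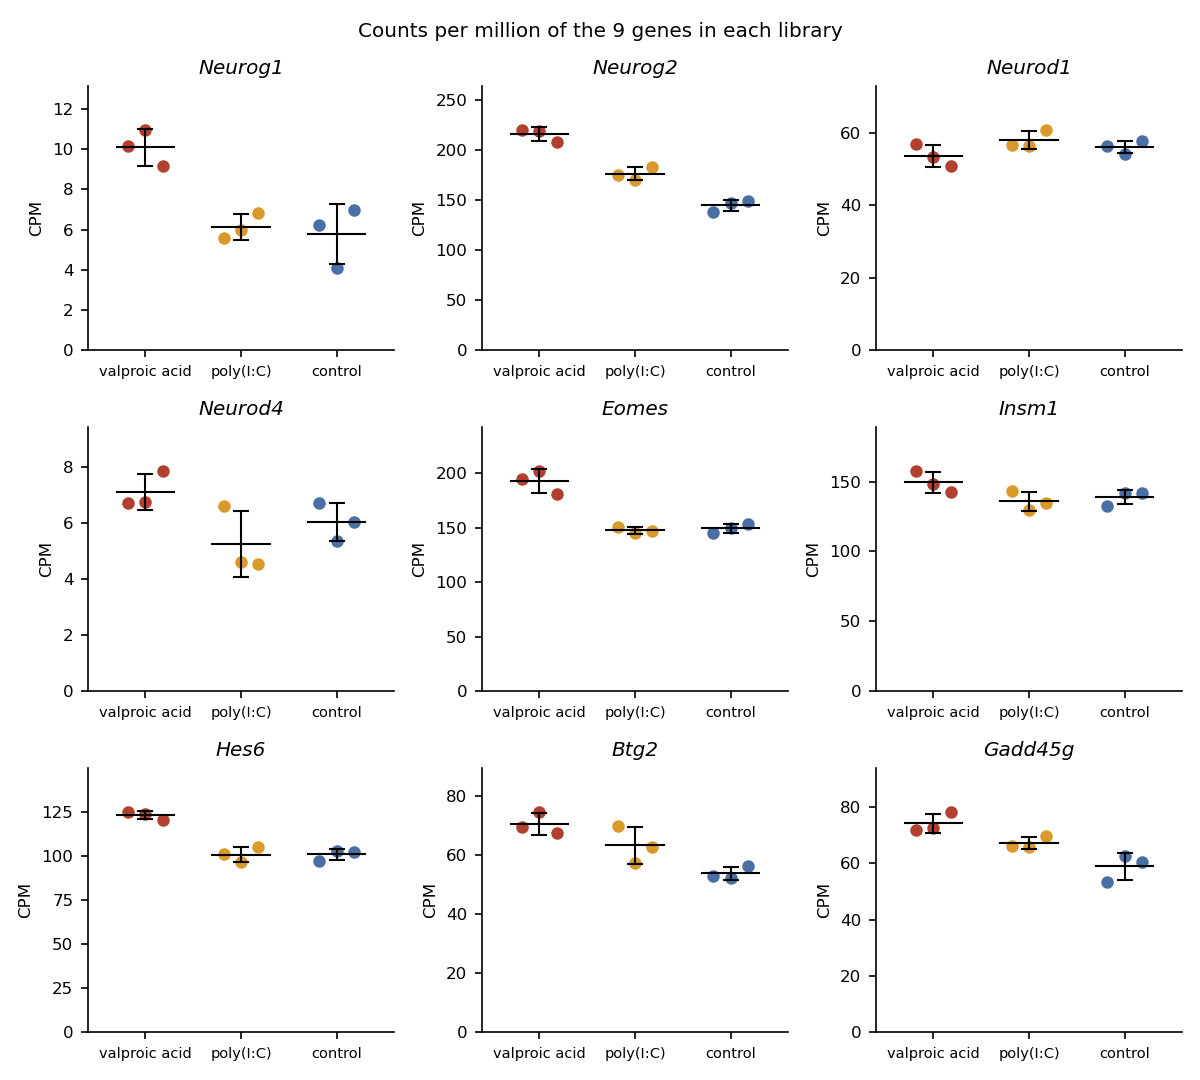
CPM of each of the 9 genes (one panel per gene, y axes from 0) in each of the 9 libraries, with points for libraries, a wide line for the group mean and error bars for the SD (n = 3), grouped as valproic acid, poly(I:C) and control. Valproic acid points lie above the control points in 7 panels, and those of Neurod1 and Neurod4 overlap them.

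Among the proneural factors, Neurog2 had 220.0, 219 and 208 CPM in valproic acid libraries, against 139, 147 and 149 CPM in controls. The groups were far apart relative to their spread. Neurog2 rose 1.49-fold after valproic acid (log2 change 0.57, SE 0.0422, 95% interval 0.48 to 0.66, edgeR adjusted p = 7.72e-06), and its p ranked 2 among the 17171 genes. Neurog1, its close relative, had a much lower level, with 10.1, 10.9 and 9.15 CPM in valproic acid libraries and 6.25, 4.11 and 6.96 CPM in controls. These values rest on 140 to 188 counts per valproic acid library and 73 to 140 counts per control library, and the groups did not overlap in CPM. Neurog1 rose 1.74-fold (log2 change 0.80, SE 0.17, 95% interval 0.44 to 1.16, edgeR adjusted p = 0.0139), the largest change of the 9 genes and the widest interval.

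The later bHLH factors, which act downstream of the proneural factors in differentiating neurons, did not pass the test. Neurod1 had 56.9, 53.4 and 50.8 CPM in valproic acid libraries and 56.4, 54.3 and 57.7 CPM in controls, and the groups overlapped. Its log2 change was -0.06 (95% interval -0.18 to 0.06, edgeR adjusted p = 0.556), so the upper bound of its interval lay below the lower bound for Neurog2. Neurod4 had 6.71, 6.75 and 7.84 CPM in valproic acid libraries against 6.72, 5.35 and 6.01 CPM in controls, with overlap at the low end. Its log2 change was 0.23 (95% interval -0.12 to 0.59, edgeR adjusted p = 0.439), a wide interval that also holds the change of Eomes. Neurod1 overlaps Cerkl and an antisense gene in the annotation, and the strand setting of the counting is not known, so some of its reads may belong to them.

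Eomes (Tbr2), the T-box factor that defines cortical intermediate progenitors, had 195, 202 and 180.5 CPM in valproic acid libraries, against 145, 149 and 154 CPM in controls. The lowest valproic acid library stood above the highest control. Eomes rose 1.29-fold (log2 change 0.37, SE 0.044, 95% interval 0.27 to 0.46, edgeR adjusted p = 0.000453). An antisense gene overlaps Eomes too, and its reads cannot be told apart. Insm1, a zinc-finger factor that promotes the formation of basal progenitors, had 157, 148 and 143 CPM in valproic acid libraries and 133, 142 and 142 CPM in controls. The groups just failed to overlap, and the change did not pass the test (log2 change 0.10, 95% interval -0.00 to 0.21, edgeR adjusted p = 0.227).

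Hes6, a bHLH protein that opposes Hes1 and promotes differentiation, had 125, 124 and 121 CPM in valproic acid libraries, against 97.3, 103 and 103 CPM in controls. It rose 1.22-fold (log2 change 0.29, SE 0.0444, edgeR adjusted p = 0.00218), with no overlap between groups. Of the growth arrest genes, Btg2 (Tis21), an antiproliferative gene switched on in progenitors that are about to make neurons, had 69.5, 74.5 and 67.3 CPM in valproic acid libraries and 52.9, 52.1 and 56.3 CPM in controls. Its rise was 1.31-fold (log2 change 0.39, SE 0.0684, edgeR adjusted p = 0.00491), with every valproic acid library above every control. Gadd45g, a growth arrest and stress gene found in cells leaving the cycle, had 71.9, 72.4 and 78.1 CPM in valproic acid libraries, against 53.5, 62.5 and 60.5 CPM in controls. It rose 1.26-fold (log2 change 0.33, SE 0.0608, edgeR adjusted p = 0.00604), again without overlap.

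All 6 calls were kept when any one valproic acid or control library was left out, the weakest being Neurog1 with an edgeR adjusted p of up to 0.0474. They did not all survive a sex-linked covariate. With the Y-linked signal as a covariate, Neurog2 (log2 change 0.52, edgeR adjusted p = 0.0003), Eomes (0.35, adjusted p = 0.0105) and Hes6 (0.25, adjusted p = 0.0434) were still called. Neurog1 (0.59, adjusted p = 0.136), Btg2 (0.36, adjusted p = 0.0518) and Gadd45g (0.29, adjusted p = 0.0774) were not. With Xist as the covariate only Neurog2 was called among the 9 (log2 change 0.49, edgeR adjusted p = 0.0339), while Eomes kept a log2 change of 0.37 with an adjusted p of 0.174. The Xist covariate leaves poly(I:C) replicate 3 as the sole library that separates Xist from valproic acid. Absence of the Y-linked signal is separated from valproic acid only by poly(I:C) replicate 3 and by control replicate 3, which had neither signal.

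**Figure D2:**
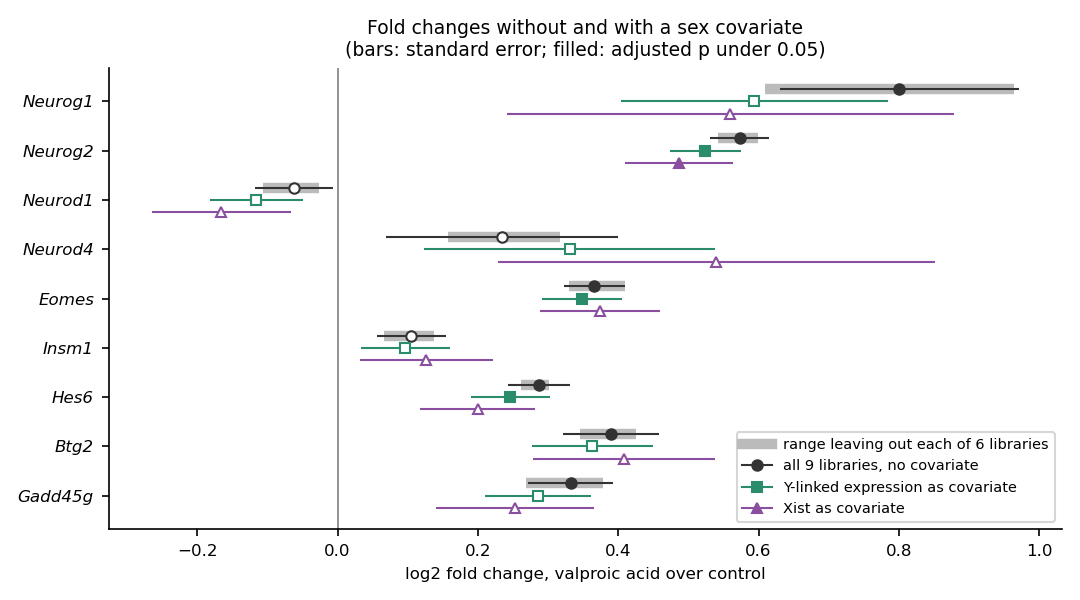
Log2 change of each gene, valproic acid against control, from the fit without a covariate, with the Y-linked signal and with Xist as covariate. Thin bars are standard errors, grey bands the range with each of 6 libraries left out, and filled markers an edgeR adjusted p under 0.05. The changes of Neurog2 read 0.57, 0.52 and 0.49 and are filled in all 3 fits, while those of Neurog1, Btg2 and Gadd45g are filled only without a covariate.

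After poly(I:C), Neurog2 alone among the 9 genes passed the test. It had 175, 170.4 and 184 CPM in poly(I:C) libraries, against 139, 147 and 149 CPM in controls, with no overlap. The rise was 1.22-fold (log2 change 0.28, SE 0.0422, 95% interval 0.19 to 0.37, edgeR adjusted p = 0.00614). Over all tested genes, 0.536% were called, 0.262% as higher, and 9.61% had every poly(I:C) library above every control and 8.83% every one below. The median log2 change of the 9 genes was 0.05, beside -0.00 over all tested genes. The Neurog2 call was kept without any one of the 6 libraries (highest edgeR adjusted p 0.046) and with either covariate (0.0056 with the Y-linked signal, 0.0473 with Xist). Between the poly(I:C) and control libraries that carry Y-linked RNA, 2 against 2, its log2 change was also 0.28, with an adjusted p of 0.0843.

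The growth arrest genes also stood above controls in every poly(I:C) library but did not pass the adjusted test. Btg2 had 69.8, 57.2 and 62.6 CPM in poly(I:C) libraries and 52.9, 52.1 and 56.3 CPM in controls (log2 change 0.23, 95% interval 0.09 to 0.38, edgeR adjusted p = 0.179). Gadd45g had 66.1, 65.6 and 69.8 CPM in poly(I:C) libraries and 53.5, 62.5 and 60.5 CPM in controls (log2 change 0.19, 95% interval 0.06 to 0.32, edgeR adjusted p = 0.219). Both had an unadjusted p under 0.05, as did 12% of all tested genes. The other 6 genes overlapped controls. Eomes had 151, 145 and 147 CPM in poly(I:C) libraries and 145, 149 and 154 CPM in controls, a log2 change of -0.02 (95% interval -0.11 to 0.08, edgeR adjusted p = 0.911). Hes6 had 101, 96.4 and 105 CPM in poly(I:C) libraries and 97.3, 103 and 103 CPM in controls, a log2 change of -0.00 (95% interval -0.10 to 0.09, adjusted p = 0.992). For both genes the interval excludes the rise measured after valproic acid. Neurog1 had 5.58, 5.98 and 6.82 CPM in poly(I:C) libraries, inside the spread of the controls (log2 change 0.08, 95% interval -0.30 to 0.46, edgeR adjusted p = 0.9).

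Neurod1 had 56.8, 56.5 and 60.8 CPM in poly(I:C) libraries, Insm1 143, 129.8 and 135 CPM, and Neurod4 6.61, 4.61 and 4.53 CPM. All of these ranges met those of the controls given above. Their log2 changes against controls were 0.05, -0.03 and -0.20, with edgeR adjusted p of 0.787, 0.846 and 0.698.

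**Figure D3:**
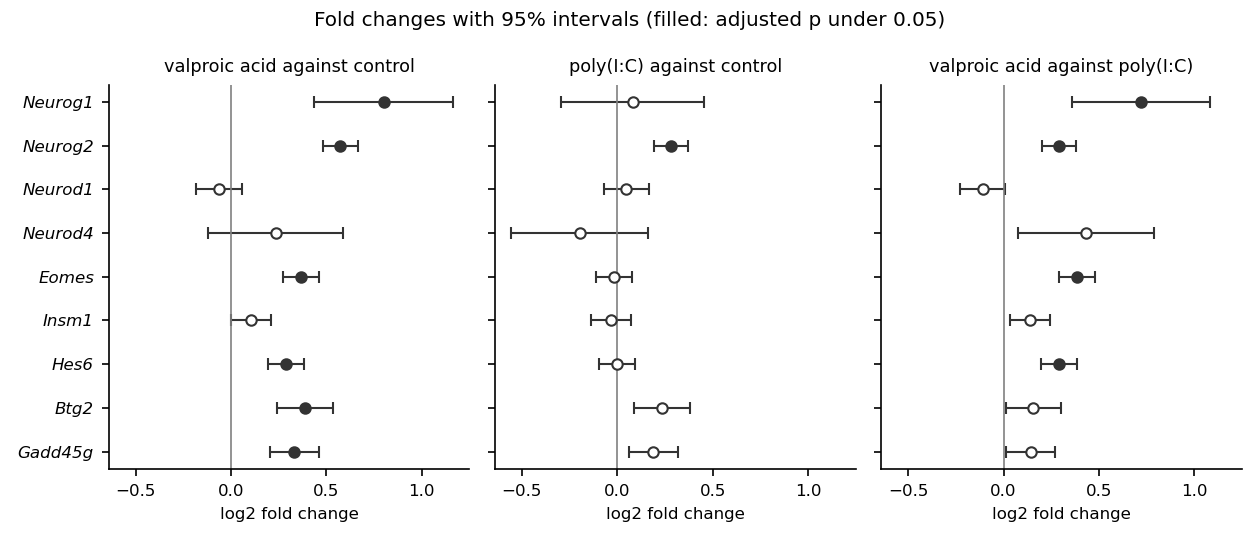
Log2 change with its 95% interval for each of the 9 genes in valproic acid against control, poly(I:C) against control and valproic acid against poly(I:C), with filled markers for an edgeR adjusted p under 0.05. In valproic acid against control 6 markers are filled, in poly(I:C) against control that of Neurog2 alone, and in valproic acid against poly(I:C) those of Neurog1, Neurog2, Eomes and Hes6.

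Set directly against poly(I:C), valproic acid libraries had more Neurog1, Neurog2, Eomes and Hes6, 4 of the 9 genes, and none of the 9 fell. Over all tested genes 2.59% were called in this comparison, 1.42% as higher and 1.18% as lower, and 10.5% had every valproic acid library above every poly(I:C) library, as 6 of the 9 did. Eomes had 195, 202 and 180.5 CPM after valproic acid and 151, 145 and 147 CPM after poly(I:C), a rise of 1.31-fold (log2 change 0.38, edgeR adjusted p = 0.000445). Neurog2 was 1.22-fold higher after valproic acid than after poly(I:C) (log2 change 0.29, SE 0.0419, edgeR adjusted p = 0.00254), so its 3 groups were ordered without overlap. Hes6 was also 1.22-fold higher (log2 change 0.29, edgeR adjusted p = 0.00409). Neurog1 was 1.65-fold higher (log2 change 0.72, SE 0.169, edgeR adjusted p = 0.0376), a call that was lost without any one of the 6 libraries, with adjusted p between 0.057 and 0.147. The calls of Eomes, Neurog2 and Hes6 were kept in all 6 such fits.

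Btg2 (log2 change 0.16, edgeR adjusted p = 0.262), Gadd45g (0.14, adjusted p = 0.248), Insm1 (0.14, adjusted p = 0.164) and Neurod4 (0.43, adjusted p = 0.201) had intervals just above 0 but did not pass. In all, 8 of the 9 had an unadjusted p under 0.05, as did 16.7% of all tested genes. Neurod1 had a log2 change of -0.11 (95% interval -0.23 to 0.01, edgeR adjusted p = 0.341). With the Y-linked covariate Eomes (adjusted p = 0.0099) and Neurog2 (0.0491) remained called, and with Xist only Eomes (0.0356). Among libraries with Xist, 3 valproic acid against poly(I:C) replicate 3, the log2 changes were 0.39 for Eomes, 0.23 for Neurog2, 0.23 for Hes6 and 0.57 for Neurog1. None of the 9 was called there, and the lone poly(I:C) library was assumed to vary like the other groups.

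Within each library, the CPM of the other 8 genes was also set against that of Neurog2. The ratios of Neurod1, Insm1, Eomes and Gadd45g to Neurog2 separated all 3 groups, and those of Hes6, Btg2, Neurod4 and Neurog1 did not. Neurod1 relative to Neurog2, as a ratio of CPM, was 0.258, 0.243 and 0.245 after valproic acid, 0.324, 0.332 and 0.331 after poly(I:C) and 0.407, 0.369 and 0.386 in controls. No library of one group reached the range of another. Neurog2, the denominator, itself separated the groups without overlap. Neurod1 itself had log2 changes against controls of -0.06 after valproic acid and 0.05 after poly(I:C), so this separation largely restates that of Neurog2. Neurod1 relative to Eomes was 0.292, 0.265 and 0.282 in valproic acid libraries, below 0.377, 0.390 and 0.414 in poly(I:C) libraries and 0.390, 0.363 and 0.375 in controls, while the poly(I:C) and control libraries overlapped.

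Hes6 relative to Neurog2 was close in both exposures, with 0.568, 0.564 and 0.581 after valproic acid and 0.576, 0.566 and 0.571 after poly(I:C), against 0.702, 0.699 and 0.687 in controls. Eomes relative to Neurog2 was 0.885, 0.920 and 0.869 after valproic acid, 0.859, 0.849 and 0.800 after poly(I:C) and 1.04, 1.02 and 1.03 in controls. Insm1 relative to Neurog2 was 0.716, 0.676 and 0.686 after valproic acid, 0.817, 0.762 and 0.733 after poly(I:C) and 0.958, 0.966 and 0.951 in controls. Both exposures thus had less Insm1, less Hes6 and less Eomes per Neurog2 transcript than any control library, although Eomes and Hes6 themselves rose after valproic acid. After poly(I:C) Insm1, Hes6 and Eomes themselves had log2 changes of -0.03, -0.00 and -0.02. Their lower ratios there restate the rise of Neurog2, the denominator, by 0.28. Gadd45g relative to Neurog2 lay at 0.327 to 0.376 after valproic acid, 0.377 to 0.385 after poly(I:C) and 0.386 to 0.425 in controls, so these groups were separate by narrow gaps. Btg2 relative to Neurog2 was lower after valproic acid, at 0.316 to 0.340, than in controls, at 0.354 to 0.382, and the poly(I:C) libraries overlapped both. Neurod4 relative to Neurog2 overlapped between all groups. Neurog1 relative to Neurog2 was higher after valproic acid, at 0.0440 to 0.0499, than after poly(I:C), at 0.0318 to 0.0372, and overlapped the controls, at 0.0280 to 0.0466. These comparisons share the control libraries and the Neurog2 values, and no sex-linked covariate was used for ratios. In exact two-sided permutation tests on the log2 ratios, each separation without overlap gave p = 0.1, the smallest that 3 against 3 allows, and 0.15 after adjustment over the 27 ratio tests made.

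**Figure D4:**
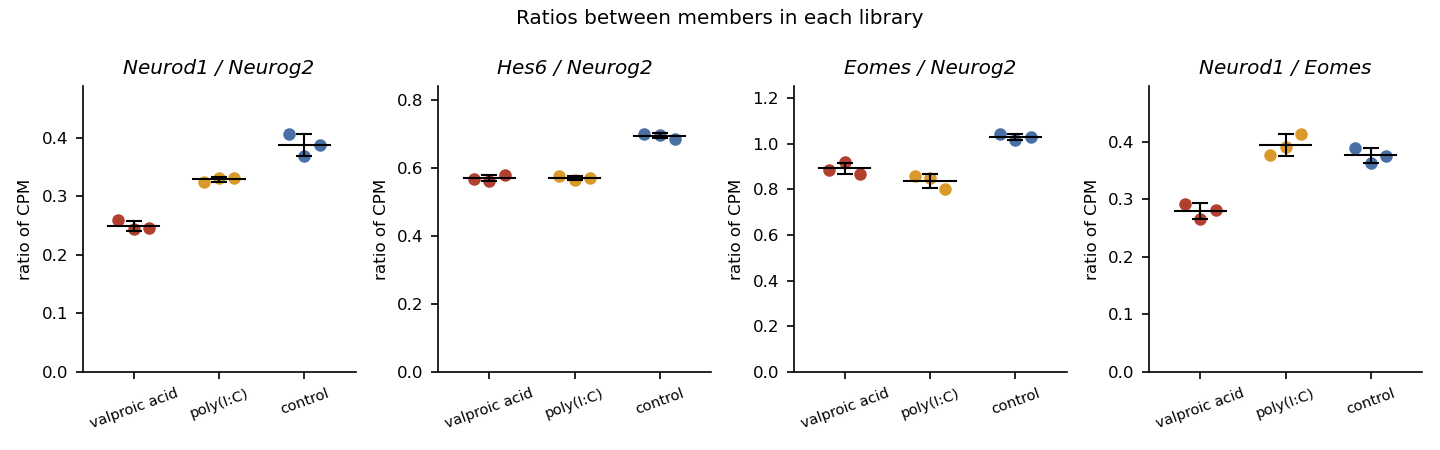
CPM ratios of member genes within each library, with points for libraries, lines for group means, error bars for the SD (n = 3) and y axes from 0. Neurod1 relative to Neurog2 lies at 0.243 to 0.258 after valproic acid, 0.324 to 0.332 after poly(I:C) and 0.369 to 0.407 in controls. Neurog2, the denominator, by itself separates the groups.

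Among other bHLH factors of neurogenesis, 6 of 10 listed genes were tested in valproic acid against control, and 2 rose and 1 fell (median log2 change -0.03). For this list and those that follow, the share over all tested genes in that comparison was 3.57% called higher and 2.78% called lower. Nhlh1, a bHLH factor of newly formed neurons, rose to 53.5 ± 3.71 CPM after valproic acid, against 41.2 ± 3.61 CPM in controls (SD, n = 3 each, log2 change 0.38, edgeR adjusted p = 0.00608). Bhlhe22, a factor of postmitotic neurons, fell by 0.21 on the log2 scale (edgeR adjusted p = 0.0155), a call lost without control replicate 2. Of 3 E proteins, the bHLH partner Tcf3 rose (log2 change 0.20, edgeR adjusted p = 0.0221), a call lost without control replicate 1 or 3 or valproic acid replicate 1. Atoh1, Atoh7, Neurog3 and Ptf1a had too few counts to test.

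Of 9 inhibitors of the Id and Hes/Hey families, 1 fell after valproic acid and none was called higher, while 7 had a positive log2 change (median 0.06). Id2, which sequesters E proteins, had 78.9 ± 1.56 CPM after valproic acid, against 92.2 ± 5.45 CPM in controls (log2 change -0.22, edgeR adjusted p = 0.0168, lost when control replicate 1 or valproic acid replicate 3 was omitted). Hes1 had 15.5 ± 0.506 CPM after valproic acid, 17.8 ± 0.368 CPM after poly(I:C) and 15.3 ± 1.5 CPM in controls. Hes5 had 18.7 ± 2.62, 19.1 ± 1.42 and 14.1 ± 3.29 CPM in valproic acid, poly(I:C) and control libraries. Neither passed the test in any comparison, with edgeR adjusted p of 0.109 or more. Both overlapped controls after valproic acid. After poly(I:C) every library lay above every control for both, as in 9.61% of tested genes. Hes1 had 17.4 to 18.1 CPM against 13.7 to 16.7 CPM, and Hes5 17.8 to 20.6 CPM against 10.7 to 17.2 CPM.

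Of 11 Neurogenin target genes, 3 rose after valproic acid and none fell (median log2 change 0.17). Dll1, a Notch ligand, had 80.1 ± 3.95 CPM after valproic acid, against 68.1 ± 0.163 CPM in controls (log2 change 0.23, edgeR adjusted p = 0.0155, lost when control replicate 1 or valproic acid replicate 2 was omitted). Mfng, a glycosyltransferase that modifies Notch, had 59.9 ± 3.69 CPM, against 48.7 ± 0.395 CPM (log2 change 0.30, adjusted p = 0.0092). Rnd2, a small GTP-binding protein of migrating neurons, had 179.7 ± 10.9 CPM, against 154 ± 8.2 CPM (log2 change 0.22, adjusted p = 0.0144, lost without control replicate 1 or 3). Of 8 other intermediate progenitor genes, 2 rose. Rhbdl3 had 97.0 ± 3.45 CPM after valproic acid, against 73.0 ± 3.93 CPM in controls (log2 change 0.41, edgeR adjusted p = 0.000637). Sstr2, a somatostatin receptor, rose by 0.26 on the log2 scale (adjusted p = 0.0363), a call lost without control replicate 1 or 2 or valproic acid replicate 1 or 2. Of 8 tested paralogs of the 9 genes none was called by edgeR or by DESeq2. An unadjusted p under 0.05 was found for 2 of the 8, near the share of 22.1% over all tested genes.

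**Figure D5:**
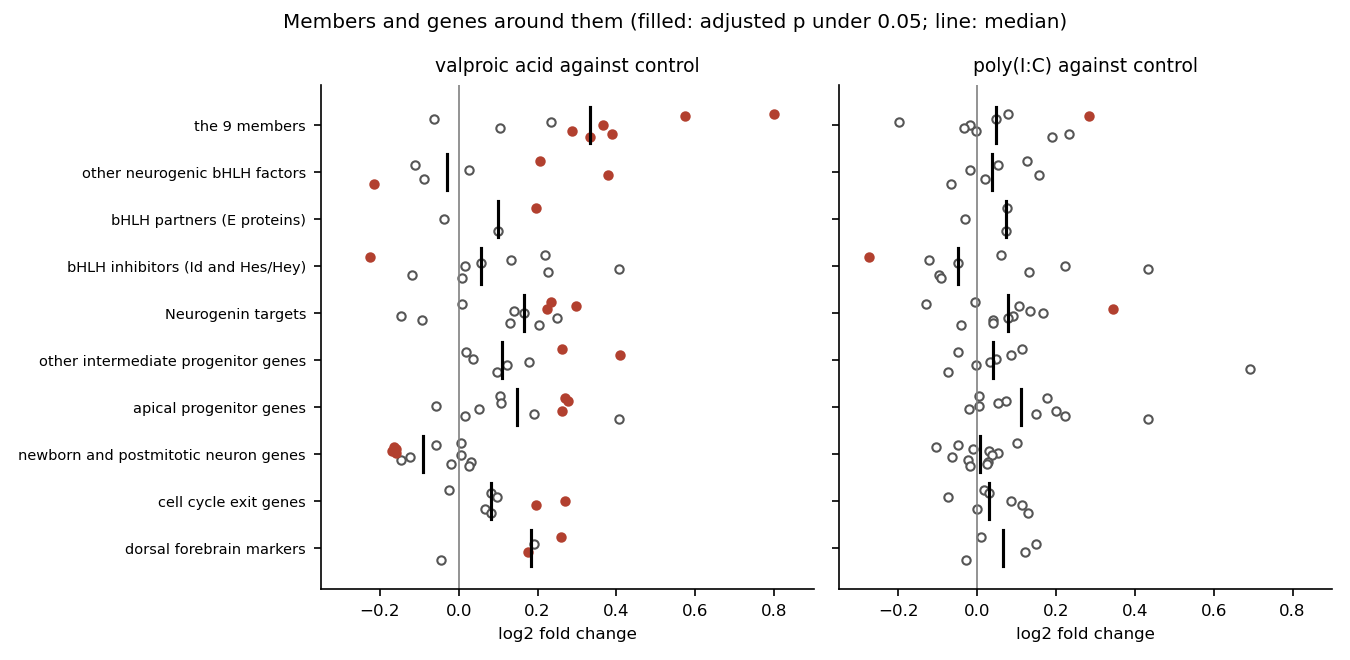
Log2 change of the members and of the genes of neighbouring lists, valproic acid against control and poly(I:C) against control, one row per list with the 9 members on top, points for genes, a vertical line for the list's median and filled points for an edgeR adjusted p under 0.05. Below the members, Rnd2 and Id2 are the genes filled after poly(I:C). The valproic acid value of Tac2, -0.95, lies outside the axis.

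On either side of the intermediate progenitors, 3 of 10 apical progenitor genes rose after valproic acid and none fell (median log2 change 0.15). Vim, the intermediate filament of radial glia, had 688 to 722 CPM after valproic acid, against 564 to 594 CPM in controls (log2 change 0.28, edgeR adjusted p = 0.000453). Pax6, a regulator of dorsal progenitors that acts upstream of Neurog2, had 97.1 ± 4.4 CPM, against 80.6 ± 2.0 CPM (log2 change 0.27, adjusted p = 0.00897), and Prom1 rose by 0.26 on the log2 scale (adjusted p = 0.0222, lost when control replicate 1 or valproic acid replicate 2 was omitted). Of 12 genes of newborn and postmitotic neurons, 4 fell and none rose (median log2 change -0.09): Map2, Stmn2, Mapt and Gap43, by 0.16 to 0.17 on the log2 scale. Each of these 4 calls was lost when control replicate 1 was left out, and when valproic acid replicate 1 was. Leaving out control replicate 2 ended those of Stmn2, Mapt and Gap43, control replicate 3 those of Map2, Stmn2 and Gap43, valproic acid replicate 2 those of Mapt and Gap43, and valproic acid replicate 3 that of Stmn2. The neuronal transcription factors Neurod2, Neurod6 and Tbr1 did not pass, with log2 changes of -0.11, 0.03 and 0.03, while Bhlhe22 (above) fell.

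The 7 genes listed under cell cycle exit include drivers of the cycle. Among them the D-type cyclins Ccnd1 (log2 change 0.27, edgeR adjusted p = 0.0195) and Ccnd2 (log2 change 0.20, adjusted p = 0.00861) rose after valproic acid. Both promote rather than stop the cycle, and the other 5 listed genes were not called. The Ccnd1 call was lost without control replicate 1 or 2 or valproic acid replicate 3. Of 4 dorsal forebrain markers Lhx2 (log2 change 0.18, edgeR adjusted p = 0.0176) and Emx1 (0.26, adjusted p = 0.0274) rose, the first lost without control replicate 1 and the other without control replicate 1 or 2 or valproic acid replicate 1 or 2. Of 5 ventral markers none was called by edgeR or DESeq2. An unadjusted p under 0.05 was found for 1 of the 5, near the share of 22.1% over all tested genes.

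Genes of other cell types moved with the same comparison. Of 8 erythroid markers 4 rose after valproic acid, Slc4a1 by 2.80-fold (edgeR adjusted p = 0.00019), and their summed level ranged over 2115 to 2429 CPM after valproic acid, 1277 to 1865 CPM after poly(I:C) and 1640 to 1901 CPM in controls. Of 7 microglial markers 2 fell, P2ry12 and Csf1r, and the sums were 65.5 to 74.6 CPM, 73.2 to 75.4 CPM and 80.2 to 88.2 CPM in valproic acid, poly(I:C) and control libraries. Csf1r lost its call when control replicate 3 or valproic acid replicate 1 was omitted. Of 6 endothelial markers Pecam1 rose, a call that depended on control replicates 1 and 3 and valproic acid replicates 2 and 3. A positive log2 change was found for 4 of the 6 (median over the 6, 0.09). Their sums were 279.6 to 305, 260.1 to 281 and 273 to 286 CPM in the same groups. Of 6 mural and fibroblast markers Rgs5 fell (not without control replicate 1), while 5 had a positive log2 change (median over the 6, 0.17). Their sums were 505 to 618, 449.7 to 478 and 511 to 558 CPM in the same groups. The 6 choroid plexus markers gave 0 calls by edgeR or DESeq2 and 0 at an unadjusted p under 0.05. With the Y-linked covariate, of the genes called in these lists Vim, Rhbdl3, Pax6, Rnd2, the 4 erythroid genes, Csf1r and Pecam1 were still called in valproic acid against control, and with Xist as covariate none of them was. The part of these cell types and of the regional markers in the changes of the 9 genes was not tested.

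After poly(I:C) none of the 10 apical progenitor genes was called, but their median log2 change was 0.11, beside 0.15 after valproic acid. In 6 of the 10 every poly(I:C) library lay above every control, as in 9.61% of tested genes. After valproic acid this held for 5 of the 10, and for 12.6% of tested genes. The neighbouring lists held 2 calls after poly(I:C), where 0.536% of all tested genes were called. Rnd2 had 195 ± 3.4 CPM after poly(I:C), against 154 ± 8.2 CPM in controls (log2 change 0.34, edgeR adjusted p = 0.00377), and was called without any one library as well. Id2 had 76.3 ± 1.54 CPM, against 92.2 ± 5.45 CPM (log2 change -0.27, edgeR adjusted p = 0.026), a call kept only without control replicate 2. With the Y-linked covariate both were called (adjusted p = 0.00535 for Rnd2 and 0.0372 for Id2), and with Xist only Rnd2 (0.0153, against 0.108 for Id2). In valproic acid against poly(I:C), Dll1 (log2 change 0.24, edgeR adjusted p = 0.0251), Rhbdl3 (0.32, adjusted p = 0.00604) and Vim (0.20, adjusted p = 0.00607) were higher after valproic acid, and Map2, Mapt and Gap43 were lower. The Dll1 call was lost without poly(I:C) replicate 2 or 3 or valproic acid replicate 2 or 3. All 8 erythroid markers were called higher in this comparison, with Pecam1, Col1a1, Lum and Dcn, and their part in the results was not tested. Of all these calls, those of Rhbdl3, Vim, Slc4a1, Hba-x and Col1a1 were kept in every fit with a library left out, and each other call was lost without poly(I:C) replicate 2, among others. With the Y-linked covariate Rhbdl3, Pecam1 and the erythroid genes Slc4a1, Hba-x, Hba-a1 and Hbb-bs were still called among these genes, and with Xist only Slc4a1, Hba-a1 and Hbb-bs.

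Among the 10598 genes whose mean reached 10 CPM, the 5 whose profiles over the 9 libraries lay nearest to Neurog2 were Gm4735, Ldha (lactate dehydrogenase), Lrp4, Pfkl (phosphofructokinase) and the ribosomal protein gene Rpl13a. Their root mean square differences from Neurog2 in centred log2 CPM were 0.0497, 0.0570, 0.0808, 0.0811 and 0.0829, where Neurog2 itself varied by 0.237. Nearest to Eomes were Aldoa (aldolase), Lss (lanosterol synthase), Tef, Nnat and Pgk1 (phosphoglycerate kinase), at 0.0438, 0.0502, 0.0511, 0.0548 and 0.0551, where Eomes itself varied by 0.182. Of the other members Btg2 ranked 18 and Gadd45g 28 in nearness to Neurog2, with Eomes at 71, Hes6 at 98, Insm1 at 1609 and Neurod1 at 6768. For Eomes, Hes6 ranked 6, and Btg2, Insm1, Neurog2 and Gadd45g ranked between 481 and 772, while Neurod1 ranked 7548, at a difference of 0.225. These distances describe 9 libraries that share 3 groups.

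Ldha, nearest to Neurog2 among genes with a named product, had log2 changes of 0.52 in valproic acid against control (edgeR adjusted p = 1.7e-05) and 0.19 in poly(I:C) against control (adjusted p = 0.0619). Aldoa, nearest to Eomes, had log2 changes of 0.35 (edgeR adjusted p = 0.00124) and -0.00 (adjusted p = 0.985) in the same comparisons. Pgk1 had log2 changes of 0.48 and 0.10 in them. Several of these genes have processed pseudogene copies, and reads may be shared with those.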

How the data were processed

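Total RNA from mouse brain at embryonic day 14 was depleted of ribosomal RNA and sequenced, per the labels. The deposited file gives raw counts of reads per gene in 1 table, made by the authors from reads aligned with HISAT2 to GRCm39 (mm39) per the submitters' processing notes. What counted the reads, on which strand and with which annotation, is not given in the sources used here. Exon lengths came from GENCODE M21. Symbols came from a separate list of gene names, which gave one for 52073 of 56748 identifiers.

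In edgeR 4.0.16 (R 4.3.3), filterByExpr (minimum count 10, minimum total count 15) left 17171 genes. TMM factors (0.978 to 1.02) scaled all 9 libraries, which were fitted with a mean per group by the quasi-likelihood method and tested two-sided, Benjamini-Hochberg adjusted over all tested genes of a comparison, and called at an adjusted p under 0.05. CPM use the TMM factors. Alternatives were DESeq2 1.42.0, other filters and scaling, a replicate block, sex-linked covariates and each library left out. The fit was also run on simulated data, and the outcome is not reported here. Ratios used exact permutation tests. Profile distances used log2 CPM with 0.5 added. The counts of sex-linked genes, not in the labels, defined the covariates and the subsets of libraries with Xist or Y-linked RNA.

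The text names all 9 members, up to 4 called genes per list with the smallest adjusted p, Hes1, Hes5, Dll1 and the 5 profiles nearest to Neurog2 and to Eomes. A gene that the lists count but the text does not name is not reported here. Neurod2, Neurod6, Tbr1, Tac2 and the forebrain, midbrain, hindbrain and thalamic genes of the tissue check were chosen after their values were seen. Members and lists were chosen with earlier results of these data known, and some genes stand in more than 1 list.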

Additional observations from a re-analysis of the deposited data

How the results depend on the processing

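Genes called in valproic acid against control numbered 1090, beside 1661 with no filter on low counts, 272 with the Y-linked covariate, 19 with Xist as covariate and 467 to 789 with a library left out. Members called there were 6, beside 3 (Y-linked) and 1 (Xist), and 6 to 6 with a library left out. In poly(I:C) against control 92 genes were called, beside 464 with no filter, 42 with Xist, 169 with DESeq2, 60 in libraries with Y-linked RNA and 38 to 63 with a library left out. Members called there were 1, beside 2 with no filter (Btg2 added, edgeR adjusted p = 0.0157), 0 in libraries with Y-linked RNA and 1 to 1 with a library left out. In valproic acid against poly(I:C) 445 genes were called, beside 1057 with no filter, 111 (Y-linked), 39 (Xist), 37 in libraries with Xist and 113 to 294 with a library left out. Members called there were 4, beside 2 (Y-linked), 1 (Xist), 0 in libraries with Xist and 3 to 3 with a library left out. Other scaling, filters at 1 CPM and fits of 6 libraries kept each count within 1.5 times. The cause of these shifts was not tested.

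The values of 3 members near 0 in poly(I:C) against control changed sign without passing. The log2 change of Neurog1, 0.08, was -0.00484 with Xist, -0.00259 without poly(I:C) replicate 3 and ranged over -0.112 (control replicate 2 left out) to 0.243 (control replicate 3 left out). That of Eomes, -0.02, ranged over -0.0396 to 0.00344 (control replicates 1 and 3 left out in turn) and was 0.0060 in libraries with Y-linked RNA. That of Hes6, -0.00, was 0.0116 and 0.00965 when control replicates 2 and 3 were left out, in a range of -0.0316 (poly(I:C) replicate 3 left out) to 0.0289 (poly(I:C) replicate 2 left out). Of the values of single members under the alternatives, 389 kept direction and side of the threshold, 25 lost a call, 1 gained one and 8 changed sign.

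The labels do not say whether the replicate numbers pair the samples. Deviations of same-numbered libraries correlated at -0.0391 to 0.167 over 9 pairs, and those of other-numbered libraries at -0.124 to 0.0723. The highest value, of control replicate 3 with poly(I:C) replicate 3, lay above all other-numbered pairs, so a pairing is neither shown nor excluded. With the number as a replicate block, 912, 88 and 344 genes and 6, 1 and 3 members were called in the 3 comparisons, Neurog1 losing its call in valproic acid against poly(I:C). Depth limits Neurog1 and Neurod4, the 2 members with the fewest counts and the widest intervals.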
